A study of Mus musculus with 17 samples.

Results

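Transcripts of mitochondrial fatty acid uptake and beta-oxidation were followed in skeletal muscle of diabetic mice with and without bezafibrate. The list held 33 genes, chosen by name for their place in the pathway, with earlier results of these data known. Of these, 30 could be analysed among the 19938 genes of the array table. Cpt1b was present only on probe sets that carry several gene symbols, and Acsl1 and Ucp2 had no probe set of their own in the probe table used here. These 3 genes were not analysed here.

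RNA came from 17 male wildtype C57BL/6N mice, labelled as 5 to 6 months old, with 1 array per mouse. In the STZ,BEZ group (n = 5), mice received streptozotocin (STZ, which destroys insulin-producing beta cells) at 65 mg/kg on 5 days, and from 2 weeks later ate a diet with bezafibrate (BEZ, a fibrate and activator of peroxisome proliferator-activated receptors, PPARs) for 8 weeks. The labels give 0.25% or 0.5% BEZ without saying which mouse ate which strength. The STZ,SD group (n = 5) received the same injections and ate standard diet (SD), and the Con,SD group (n = 7) was injected with citrate buffer and ate standard diet. Which muscle was taken was not given in the sources used here, and the 10 muscle fibre markers averaged 13.2 to 13.4 on every array. Values are log2 expression values, on which a difference of 1 is a doubling. Differences carry the SE of the limma fit. Their p-values were adjusted over all genes after Benjamini and Hochberg, and a gene was called where the adjusted p was under 0.1. Con,SD 1, 3 and 4 stood somewhat apart, with median correlations of 0.973, 0.981 and 0.976 to the other controls, where the remaining controls had 0.984 to 0.986 and the STZ arrays 0.988 to 0.992 within their groups. Results were therefore also computed without these 3 arrays. In bulk muscle, fewer cells of a type and less RNA per cell cannot be told apart.

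Fatty acids enter the muscle fibre with the help of membrane transporters, are activated to acyl-CoA, and cross into mitochondria as acylcarnitines. Inside, a repeated cycle of dehydrogenation, hydration, a second dehydrogenation and thiolysis shortens the chain to acetyl-CoA, and the electrons pass through flavoproteins to the respiratory chain. Many genes of this pathway are known targets of the PPARs, and muscle relies on the pathway in fasting and in insulin deficiency.

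Comparing STZ,SD with Con,SD asks what insulin deficiency changed in the pathway. Of the 30 members, 10 rose and 5 fell. The risers were Cd36, Slc27a1, Angptl4, Crat, Mlycd, Acadl, Eci1, Eci2, Acot1 and Acot2, and the fallers were Slc25a20, Echs1, Hadh, Acaa2 and Acot13. Over all genes 13.9% were called higher and 11.9% lower. All arrays of STZ,SD lay above all of Con,SD for 6 members, against 4.87% of all genes, and below for 1 member, against 3.43%. The median difference of the members was 0.04, beside -0.01 for all genes. It was -0.03 without STZ,SD 3, 0.01 without STZ,SD 1, 0.00 without Con,SD 6, 0.03 without Con,SD 2, 0.06 without STZ,SD 2, between 0.07 and 0.08 without Con,SD 1, STZ,SD 4 or STZ,SD 5, 0.12 without Con,SD 1, 3 and 4, and -0.02 with the slow-twitch marker level as a covariate. Without STZ,SD 3, the array highest in most members, 6 members rose and 6 fell, and without Con,SD 1, 3 and 4 together 9 rose and 2 fell.

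Comparing STZ,BEZ with STZ,SD asks what bezafibrate changed in diabetic muscle. No member passed the adjusted test in either direction, where limma called 0.0201% of all genes higher and 0% lower, and significance analysis of microarrays (SAM) also called 0 members. At an unadjusted p under 0.05, limma had 5 members higher, against 3.55% of all genes, and 0 members lower, against 2.14%. The 5 were Slc22a5, Slc25a20, Cpt2, Acads and Decr1. Slc22a5 and Slc25a20, both of the carnitine shuttle, were the 2 members whose STZ,BEZ arrays all lay above STZ,SD, against 0.677% of all genes, and 0 members lay below, against 0.487%. In sign alone, 26 of the 30 differences were above 0, compared with 50.7% of all genes, with a median of 0.09 for the members and 0.00 for all genes. The members' median was 0.18 without STZ,SD 3, 0.06 without STZ,SD 5 and 0.07 with the slow-twitch marker level as a covariate. The members varied together from array to array, so their signs are not independent of each other.

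Set against Con,SD, STZ,BEZ muscle had 11 members higher and 2 lower. Those higher were Cd36, Slc27a1, Cpt2, Crat, Mlycd, Acadvl, Acadl, Ech1, Eci1, Acot1 and Acot2, and those lower were Echs1 and Hadh. The shares over all genes were 13.1% higher and 8.45% lower. The groups did not overlap for 8 members above, against 6.01% of all genes, and for 1 member below, against 2.50%. The members' median difference was 0.19, beside -0.01 for all genes, and was 0.11 with the slow-twitch marker level as a covariate. The 3 comparisons share arrays, so that their values are not independent of each other.

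**Figure D1:**
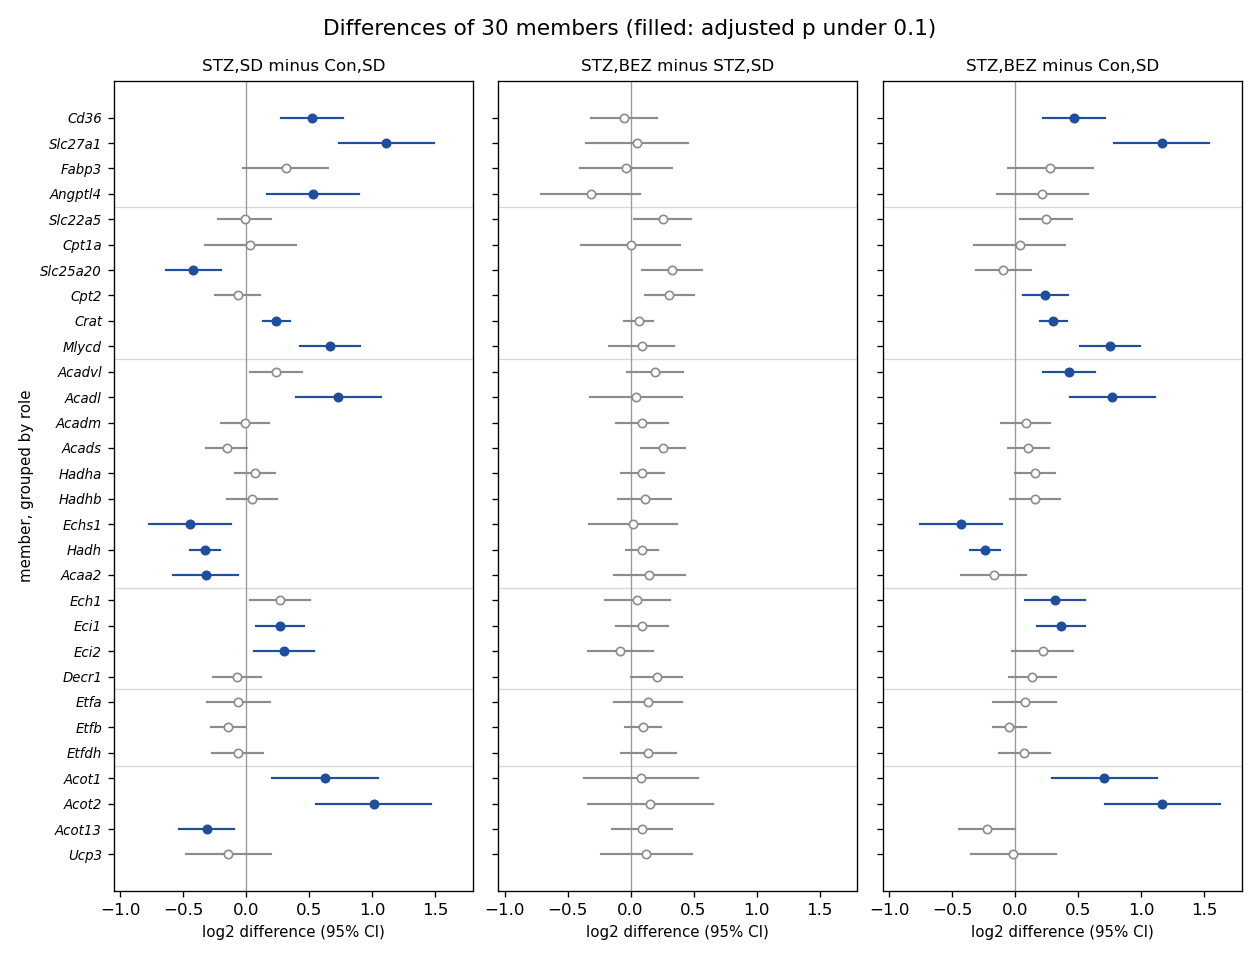
Log2 differences of the 30 members with 95% confidence intervals, one column per comparison, grouped by role from uptake at the top to thioesterases and uncoupling at the bottom. Filled points passed an adjusted p under 0.1: 15 members in the left column, none in the middle and 13 in the right, with Slc27a1 and Acot2 furthest to the right in both outer columns.

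Among the uptake genes, Slc27a1 (FATP1, a fatty acid transport protein of the fibre membrane) had the largest rise of all members in STZ,SD. It measured 10.08, 10.66, 9.87, 10.67 and 10.81 on the STZ,BEZ arrays, 10.44, 10.51, 10.91, 9.84 and 10.13 on the STZ,SD arrays, and 8.90, 9.29 and 9.56 (lowest, median, highest) in Con,SD. Every array of either STZ group lay above every Con,SD array, and both STZ groups spanned about the same range. The difference was 1.11 ± 0.18 for STZ,SD over Con,SD (2.16-fold, adjusted p = 0.00038), 0.05 ± 0.19 for STZ,BEZ over STZ,SD (95% interval -0.36 to 0.46) and 1.16 ± 0.18 for STZ,BEZ over Con,SD.

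Cd36, the fatty acid translocase, was also above all controls in both STZ groups. Its values were 11.49, 11.76, 11.38, 11.85 and 11.98 in STZ,BEZ, 11.70, 11.93, 12.10, 11.41 and 11.58 in STZ,SD, and 11.01, 11.21 and 11.36 (lowest, median, highest) in Con,SD. The lowest STZ,BEZ array was just above the highest Con,SD array. Cd36 rose by 0.52 ± 0.12 in STZ,SD (1.43-fold, adjusted p = 0.00468), and STZ,BEZ differed from STZ,SD by -0.05 ± 0.13. Angptl4, a secreted inhibitor of lipoprotein lipase and a known PPAR target, is the member for which STZ,BEZ stood furthest below STZ,SD, by -0.32 ± 0.19 (95% interval -0.71 to 0.07, adjusted p = 0.925). Its arrays read 6.43, 6.85, 6.93, 6.97 and 7.35 in STZ,BEZ, 7.05, 6.91, 7.51, 7.19 and 7.46 in STZ,SD, and 6.36, 6.65 and 7.42 (lowest, median, highest) in Con,SD, where only Con,SD 2 exceeded 6.87. Its rise in STZ,SD over Con,SD, 0.53 ± 0.17 with adjusted p = 0.0389, was lost without STZ,SD 3 (0.46, adjusted p = 0.111). Fabp3, the fatty acid binding protein of muscle and heart cytosol, averaged 12.00 ± 0.21 in STZ,BEZ, 12.03 ± 0.22 in STZ,SD and 11.71 ± 0.39 in Con,SD (SD, n = 5, 5 and 7). Limma on all arrays did not call it, with 0.31 ± 0.16 for STZ,SD over Con,SD. SAM called that difference higher, and limma did without Con,SD 1, 3 and 4 (0.49, adjusted p = 0.0657). Fabp3 and Hadhb were the members with 2 probe sets, and the mean of both gave 0.34 for Fabp3 and 0.04 for Hadhb.

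**Figure D2:**
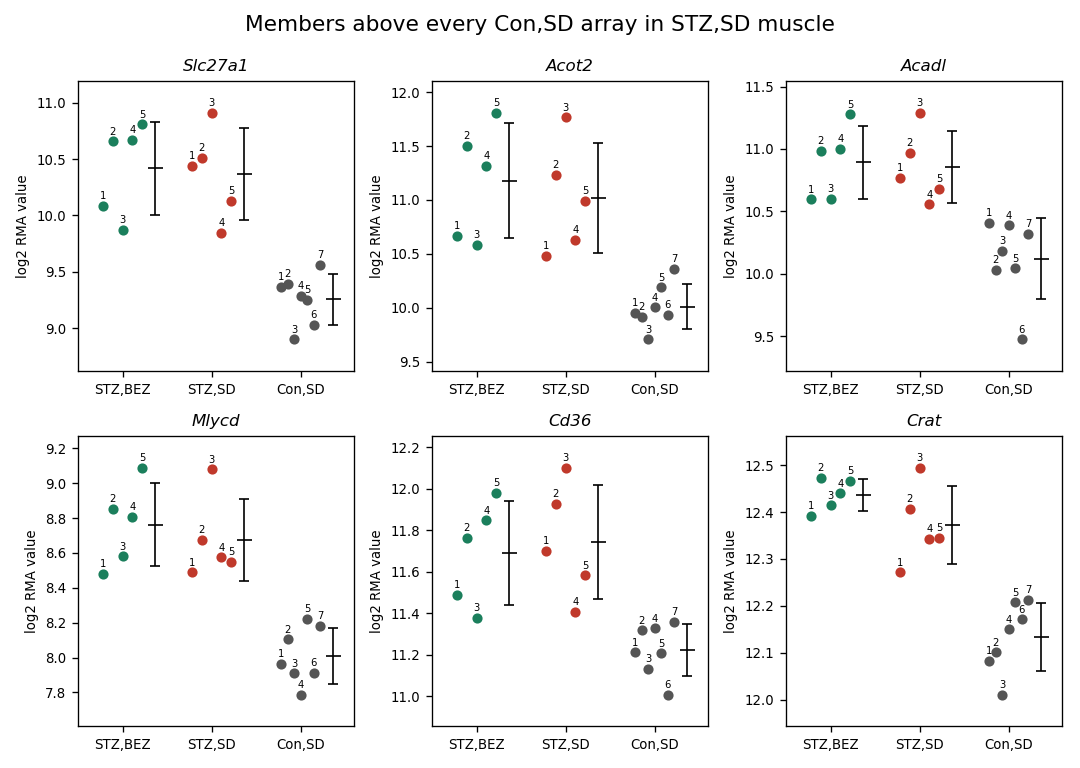
Log2 values of 6 members on each array, with replicate numbers at the points and mean ± SD to the right of each group, STZ,BEZ (n = 5), STZ,SD (n = 5) and Con,SD (n = 7) from left to right. In all 6 panels every STZ,SD and STZ,BEZ point lies above the highest Con,SD point, and both STZ groups overlap.

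The carnitine shuttle was divided. Mlycd, malonyl-CoA decarboxylase, which removes the inhibitor of carnitine palmitoyltransferase 1, rose by 0.66 ± 0.11 in STZ,SD over Con,SD (1.58-fold, adjusted p = 0.000621). Its values were 8.48, 8.85, 8.58, 8.81 and 9.09 in STZ,BEZ, 8.49, 8.68, 9.08, 8.57 and 8.55 in STZ,SD, and 7.79, 7.96 and 8.22 (lowest, median, highest) in Con,SD, with a clear gap between both STZ groups and Con,SD. Crat, carnitine acetyltransferase, which buffers the acetyl-CoA pool, moved less but with little spread. It read 12.39, 12.47, 12.41, 12.44 and 12.47 in STZ,BEZ, 12.27, 12.41, 12.49, 12.34 and 12.35 in STZ,SD, and 12.01, 12.15 and 12.21 (lowest, median, highest) in Con,SD. The rise was 0.24 ± 0.05 in STZ,SD (adjusted p = 0.00346) and 0.30 ± 0.05 in STZ,BEZ (adjusted p = 0.000865), both over Con,SD.

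Slc25a20, the carnitine-acylcarnitine translocase of the inner membrane, fell in STZ,SD by 0.42 ± 0.10 against Con,SD (1.34-fold, adjusted p = 0.00914). Its arrays measured 9.51, 9.56, 9.64, 9.74 and 9.76 in STZ,BEZ, 9.50, 9.21, 9.38, 9.39 and 9.11 in STZ,SD, and 9.25, 9.83 and 9.93 (lowest, median, highest) in Con,SD. Con,SD 6 alone among the controls lay within the STZ,SD range, the other controls being at 9.66 or above. The lowest STZ,BEZ array lay just above the highest STZ,SD array, and the difference of STZ,BEZ over STZ,SD was 0.33 ± 0.11 with an unadjusted p of 0.00965 and an adjusted p of 0.778 in limma. STZ,BEZ stood -0.09 ± 0.10 from Con,SD (95% interval -0.31 to 0.13).

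Cpt2, carnitine palmitoyltransferase 2, which turns acylcarnitine back into acyl-CoA, measured 10.15, 10.29, 10.40, 10.28 and 10.43 in STZ,BEZ, 10.09, 9.81, 10.02, 10.20 and 9.90 in STZ,SD, and 9.78, 10.15 and 10.24 (lowest, median, highest) in Con,SD. Only STZ,BEZ 1 lay below the highest STZ,SD array. Cpt2 differed by 0.31 ± 0.09 between STZ,BEZ and STZ,SD (unadjusted p = 0.00365, adjusted p = 0.778 in limma), and by -0.07 ± 0.09 between STZ,SD and Con,SD. It was called higher in STZ,BEZ than in Con,SD, with 0.24 ± 0.09 (adjusted p = 0.0674), a call that was lost without Con,SD 2 (0.21), Con,SD 6 (0.19) or STZ,BEZ 2 (0.25), 3 (0.22) or 5 (0.21), and with the hepatocyte (0.22, adjusted p = 0.167) or slow-twitch (0.19, adjusted p = 0.186) marker level as a covariate.

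Slc22a5, the OCTN2 transporter that brings carnitine into the cell, measured 7.11, 7.15, 7.19, 7.39 and 7.17 in STZ,BEZ, 7.11, 6.93, 7.08, 6.87 and 6.75 in STZ,SD, and 6.66, 6.90 and 7.33 (lowest, median, highest) in Con,SD. The lowest STZ,BEZ and the highest STZ,SD array nearly touched, and Con,SD covered nearly all of both ranges. The difference between STZ,BEZ and STZ,SD was 0.25 ± 0.11 (unadjusted p = 0.0297, adjusted p = 0.847 in limma). Against Con,SD, STZ,BEZ differed by 0.24 ± 0.10 (adjusted p = 0.108 in limma). SAM called that difference higher, as did limma without Con,SD 2 (adjusted p = 0.0714) or 7 (adjusted p = 0.0279). Limma also called it without the 30% dimmest genes (adjusted p = 0.0876) and with a replicate block (adjusted p = 0.0756). Cpt1a, the liver form of carnitine palmitoyltransferase 1, differed by 0.03 ± 0.17 between STZ,SD and Con,SD and by 0.00 ± 0.19 between STZ,BEZ and STZ,SD. Con,SD 1 had 8.92 for it and the other controls 7.74 to 7.93. The same array had the highest level of 12 hepatocyte markers, 11.6 beside 9.70 on the next control, 8.03 to 8.84 in STZ,SD and 7.51 to 8.22 in STZ,BEZ, and the part of this in the Cpt1a value was not tested. Without Con,SD 1, 3 and 4 Cpt1a differed by 0.16 (adjusted p = 0.435). Its muscle counterpart Cpt1b is among the genes not analysed.

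In the oxidation spiral, the acyl-CoA dehydrogenases of the first step did not move together. Acadl, the long-chain enzyme, measured 10.60, 10.98, 10.60, 11.00 and 11.28 in STZ,BEZ, 10.77, 10.97, 11.29, 10.56 and 10.68 in STZ,SD, and 9.47, 10.18 and 10.41 (lowest, median, highest) in Con,SD. Neither STZ group overlapped with Con,SD. The rise was 0.73 ± 0.16 in STZ,SD (1.66-fold, adjusted p = 0.00413) and 0.77 ± 0.16 in STZ,BEZ (adjusted p = 0.00382) over Con,SD. Acadvl, the very-long-chain enzyme of the inner membrane, read 9.59, 9.81, 9.82, 9.93 and 9.81 in STZ,BEZ, 9.50, 9.60, 9.84, 9.63 and 9.43 in STZ,SD, and 8.96, 9.34 and 9.58 (lowest, median, highest) in Con,SD. STZ,BEZ lay just above the controls without overlap, and STZ,SD straddled their upper end. Acadvl was 0.42 ± 0.10 higher in STZ,BEZ than in Con,SD (adjusted p = 0.00739), and STZ,SD, with 0.24 ± 0.10 over Con,SD, fell short of the threshold (adjusted p = 0.104). It passed by SAM, with array weights (adjusted p = 0.0845), after a second quantile normalization (adjusted p = 0.0902), without the 30% dimmest genes (adjusted p = 0.0841), without Con,SD 1, 4 or 7 or STZ,SD 5, and without Con,SD 1, 3 and 4 (0.31, adjusted p = 0.0687). The difference between both STZ groups was 0.19 ± 0.11 (adjusted p = 0.915).

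The medium-chain enzyme Acadm differed by -0.01 ± 0.09 between STZ,SD and Con,SD (95% interval -0.20 to 0.18) and by 0.09 ± 0.10 between STZ,BEZ and STZ,SD. Acads, the short-chain enzyme, had 9.75, 9.66, 9.80, 9.62 and 9.55 in STZ,BEZ, 9.32, 9.22, 9.39, 9.69 and 9.48 in STZ,SD, and 9.41, 9.57 and 9.73 (lowest, median, highest) in Con,SD. Apart from STZ,SD 4, all STZ,SD arrays lay below all STZ,BEZ arrays. Its difference of 0.26 ± 0.08 between STZ,BEZ and STZ,SD had an unadjusted p of 0.00672 and an adjusted p of 0.778 in limma. STZ,SD stood at -0.15 ± 0.08 against Con,SD, and passed the test only when STZ,SD 4 was left out (-0.22, adjusted p = 0.0427).

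Hadh, the short-chain hydroxyacyl-CoA dehydrogenase of the third step, was the member that fell without overlap. It measured 11.81, 11.90, 11.85, 11.84 and 11.86 in STZ,BEZ, 11.78, 11.76, 11.81, 11.76 and 11.70 in STZ,SD, and 11.98, 12.04 and 12.29 (lowest, median, highest) in Con,SD. Both STZ groups were tightly grouped below the lowest control. The fall was 0.33 ± 0.06 in STZ,SD (1.25-fold, adjusted p = 0.000702), while STZ,BEZ differed from Con,SD by -0.24 ± 0.06 (adjusted p = 0.00954).

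Echs1, the short-chain enoyl-CoA hydratase of the second step, measured 9.85, 10.01, 9.93, 10.22 and 10.38 in STZ,BEZ, 9.95, 10.53, 10.49, 9.77 and 9.57 in STZ,SD, and 10.24, 10.50 and 10.87 (lowest, median, highest) in Con,SD. STZ,SD 2 and 3 sat at the controls' level and the other STZ,SD arrays below all controls. The difference was -0.45 ± 0.15 for STZ,SD (adjusted p = 0.0517) and -0.43 ± 0.15 for STZ,BEZ (adjusted p = 0.0707) against Con,SD. The call in STZ,SD was lost without STZ,SD 1 (-0.42), 4 (-0.37) or 5 (-0.33), and with the hepatocyte marker level as a covariate (-0.36, adjusted p = 0.115). The call in STZ,BEZ was lost without Con,SD 7 (-0.41) or STZ,BEZ 1 (-0.37), 2 (-0.41) or 3 (-0.39), and with that covariate (-0.28, adjusted p = 0.296). Of the 12 hepatocyte markers 8 were called lower in STZ,BEZ than in Con,SD, and their part in the Echs1 values was not tested.

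Acaa2, the mitochondrial thiolase of the last step, read 11.46, 11.64, 11.54, 11.83 and 11.79 in STZ,BEZ, 11.51, 11.46, 11.75, 11.46 and 11.35 in STZ,SD, and 11.35, 11.75 and 12.29 (lowest, median, highest) in Con,SD. Con,SD 1 was the highest control and Con,SD 6 lay level with the lowest STZ,SD array. Its fall in STZ,SD, 0.32 ± 0.12 with adjusted p = 0.078, was lost without Con,SD 1 (-0.24), 4 (-0.31) or 7 (-0.28), without STZ,SD 1 (-0.32), 2 (-0.31), 4 (-0.31) or 5 (-0.28), and with the hepatocyte marker level as a covariate (-0.25, adjusted p = 0.172). The call was also lost after a second quantile normalization (adjusted p = 0.125), with only the groups compared (adjusted p = 0.119), and without Con,SD 1, 3 and 4 (-0.22, adjusted p = 0.235).

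Hadha and Hadhb encode the subunits of the trifunctional protein, which carries out the last 3 steps for long chains. With limma on all arrays neither was called in the 3 comparisons, while Hadha was called higher in STZ,BEZ than in Con,SD (0.16 ± 0.08, adjusted p = 0.162) by SAM, after a second quantile normalization (0.19, adjusted p = 0.0966) and with array weights (0.18, adjusted p = 0.0977). STZ,SD differed from Con,SD by 0.07 ± 0.08 for Hadha and 0.05 ± 0.09 for Hadhb, and STZ,BEZ from STZ,SD by 0.09 ± 0.08 and 0.11 ± 0.10. STZ,SD 3 was the highest STZ,SD array for both, at 11.57 for Hadha and 11.34 for Hadhb, and Con,SD 6 the lowest control for both, at 11.05 and 10.74. The genes lie head to head with 272 bases between their starts. They are shown because one stretch serves as upstream sequence of both, 228 bases at chr5:30155003-30155230 (RefSeq, GRCm38.p6), given on the Hadhb strand with its 15 CG pairs in capitals.
Hadha and Hadhb: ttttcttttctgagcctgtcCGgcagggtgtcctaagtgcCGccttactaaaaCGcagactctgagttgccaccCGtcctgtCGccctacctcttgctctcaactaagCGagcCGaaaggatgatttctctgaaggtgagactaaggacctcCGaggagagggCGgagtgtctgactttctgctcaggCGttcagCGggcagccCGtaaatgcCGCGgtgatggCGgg

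**Figure D3:**
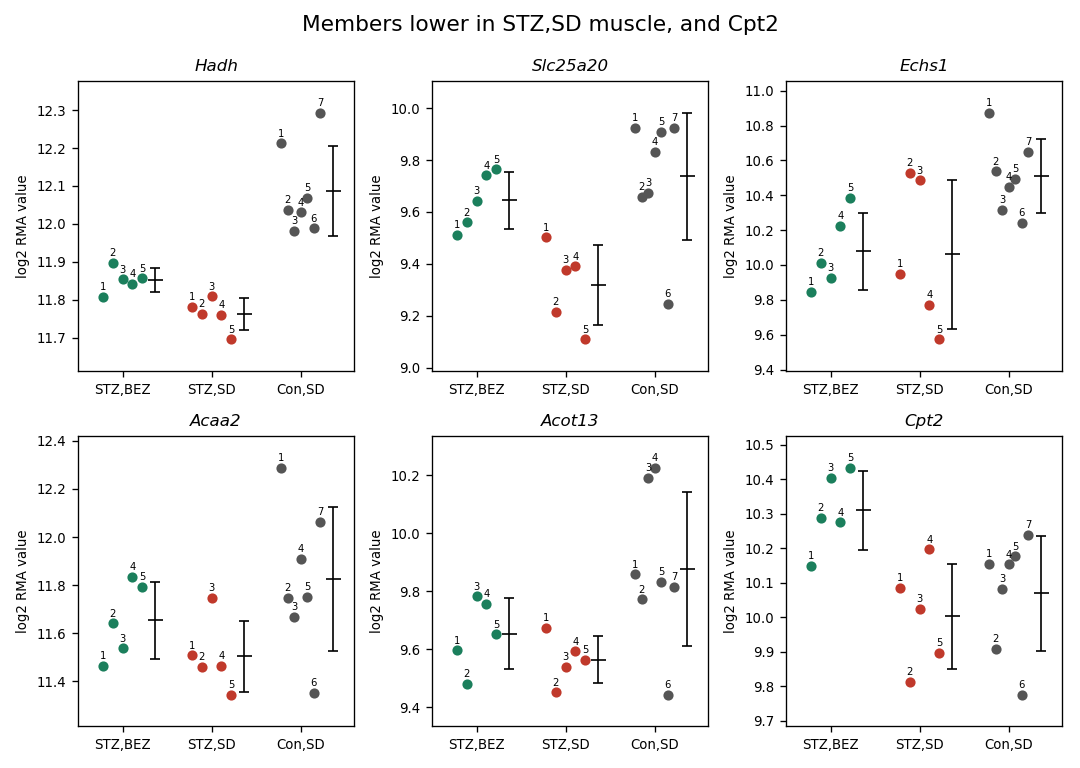
Log2 values of the 5 members lower in STZ,SD than in Con,SD, and of Cpt2, on each array, with replicate numbers at the points and mean ± SD to the right of each group, STZ,BEZ, STZ,SD and Con,SD from left to right. Hadh is separated from Con,SD in both STZ groups, Slc25a20 and Cpt2 are higher in STZ,BEZ than in STZ,SD with adjusted p = 0.778 for each, and Con,SD 6 is the lowest control for Slc25a20, Echs1, Acaa2, Acot13 and Cpt2.

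Of the 4 auxiliary enzymes of unsaturated fatty acids, Eci1 and Eci2 were called higher in STZ,SD, and Ech1 and Eci1 in STZ,BEZ, against Con,SD. Eci1, the main mitochondrial enoyl-CoA isomerase, read 10.17, 10.43, 10.30, 10.42 and 10.45 in STZ,BEZ, 10.18, 10.25, 10.58, 10.21 and 10.08 in STZ,SD, and 9.69, 10.02 and 10.20 (lowest, median, highest) in Con,SD. Con,SD 4 reached into the range of both STZ groups and Con,SD 7, at 10.09, just into that of STZ,SD. Eci1 rose by 0.27 ± 0.09 in STZ,SD (adjusted p = 0.0465) and by 0.36 ± 0.09 in STZ,BEZ (adjusted p = 0.0122) over Con,SD, and the call in STZ,SD was lost without STZ,SD 3 (0.19, adjusted p = 0.152). Eci2, a second isomerase found in mitochondria and peroxisomes, rose by 0.30 ± 0.11 in STZ,SD over Con,SD (adjusted p = 0.0743). That call was lost without STZ,SD 1 (0.31), 3 (0.20) or 5 (0.31), or without Con,SD 3, 4 or 5 (0.30 each) or 6 (0.26). It was also lost with the slow-twitch marker level as a covariate (0.26, adjusted p = 0.126). STZ,BEZ differed from Con,SD by 0.22 ± 0.11 for Eci2 (adjusted p = 0.21), called higher by SAM and, in limma, without STZ,BEZ 1 (0.30, adjusted p = 0.0957). Ech1, the dienoyl-CoA isomerase, had 0.27 ± 0.11 for STZ,SD (adjusted p = 0.112, called under 7 alternatives, SAM among them) and rose by 0.32 ± 0.11 in STZ,BEZ (adjusted p = 0.0685), both over Con,SD. Its call in STZ,BEZ was lost without Con,SD 3 (0.28) or 6 (0.26) or STZ,BEZ 2 (0.28), 4 (0.30) or 5 (0.27), and with the slow-twitch marker level as a covariate (0.21). Decr1, the dienoyl-CoA reductase, stood at -0.07 ± 0.09 in STZ,SD against Con,SD and at 0.21 ± 0.10 in STZ,BEZ against STZ,SD (unadjusted p = 0.0464, adjusted p = 0.871 in limma).

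Etfa and Etfb, the subunits of the electron transfer flavoprotein that takes the electrons of the first step, and Etfdh, which hands them to ubiquinone, passed the test on all arrays in 0 of the 3 comparisons. STZ,SD differed from Con,SD by -0.06 ± 0.12 for Etfa, -0.14 ± 0.06 for Etfb and -0.07 ± 0.10 for Etfdh. STZ,BEZ differed from STZ,SD by 0.14 ± 0.13, 0.10 ± 0.07 and 0.14 ± 0.10 in the same order. In limma Etfb passed without Con,SD 3 (-0.17, adjusted p = 0.0774), Con,SD 6 (-0.17, adjusted p = 0.0821) or STZ,SD 3 (-0.18, adjusted p = 0.0743), and with the slow-twitch marker level as a covariate (-0.18, adjusted p = 0.0361). Among further alternatives Etfb also passed, narrowly, without the 30% dimmest genes (adjusted p = 0.0991) and with array weights (adjusted p = 0.09996). All 3 intervals between STZ,BEZ and STZ,SD reached from below 0 to at most 0.41.

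The acyl-CoA thioesterases, which release free fatty acid from acyl-CoA, held both a 2.02-fold rise and a fall in STZ,SD against Con,SD. Acot2, the mitochondrial enzyme, measured 10.67, 11.50, 10.58, 11.32 and 11.81 in STZ,BEZ, 10.48, 11.23, 11.77, 10.63 and 10.99 in STZ,SD, and 9.71, 9.95 and 10.36 (lowest, median, highest) in Con,SD. Every STZ array lay above every control, with a wide spread inside both STZ groups. The rise was 1.01 ± 0.22 in STZ,SD (2.02-fold, adjusted p = 0.00351) and 1.17 ± 0.22 in STZ,BEZ (2.25-fold, adjusted p = 0.00175), both over Con,SD.

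Acot1, its cytosolic paralog, read 5.59, 6.10, 5.64, 6.18 and 6.81 in STZ,BEZ, 5.45, 6.23, 6.62, 5.63 and 5.98 in STZ,SD, and 5.00, 5.40 and 5.51 (lowest, median, highest) in Con,SD. STZ,BEZ 5 and STZ,SD 3 were the highest arrays of their groups for Acot1, as they were for Acot2, and only STZ,SD 1 fell within the range of the controls. Acot1 rose by 0.63 ± 0.20 in STZ,SD (adjusted p = 0.0361), lost without STZ,SD 3 (0.47, adjusted p = 0.121), and by 0.71 ± 0.20 in STZ,BEZ (adjusted p = 0.0238), both over Con,SD. Without Con,SD 1, 3 and 4 both calls were lost (0.52 in STZ,SD, adjusted p = 0.143, and 0.61 in STZ,BEZ, adjusted p = 0.106). Signal of one paralog on the probes of the other was not tested. The 2 genes lie in tandem on chromosome 12 with 15624 bases between them, and their promoters are shown because the members moved together. Each run gives the 250 bases upstream of the start (RefSeq, GRCm38.p6, plus strand), Acot2 at chr12:83987611-83987860 and Acot1 at chr12:84009252-84009501, with CCAAT, or its reverse complement, in capitals.
Acot2: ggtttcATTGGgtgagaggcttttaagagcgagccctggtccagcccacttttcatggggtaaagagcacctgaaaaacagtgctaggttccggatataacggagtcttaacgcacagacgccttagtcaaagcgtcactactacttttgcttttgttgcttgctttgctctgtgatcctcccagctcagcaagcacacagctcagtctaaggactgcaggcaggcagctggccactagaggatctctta
Acot1: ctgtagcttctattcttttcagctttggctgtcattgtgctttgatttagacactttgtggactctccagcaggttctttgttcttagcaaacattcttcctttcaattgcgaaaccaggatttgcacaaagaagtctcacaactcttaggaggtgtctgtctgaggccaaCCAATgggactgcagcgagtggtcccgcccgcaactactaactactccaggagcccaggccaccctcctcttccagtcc
The CCAAT match of Acot1 begins 79 bases before its start and that of Acot2 begins 244 bases before, on the opposite strand. In a global alignment 148 of 295 columns were identical (50.2%). No other promoters were aligned beside them, so this share cannot be read as similarity of the pair.

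Acot13, a small mitochondrial thioesterase of another family, fell in STZ,SD by 0.31 ± 0.11 (adjusted p = 0.0452). Its arrays gave 9.60, 9.48, 9.78, 9.76 and 9.65 in STZ,BEZ, 9.67, 9.45, 9.54, 9.59 and 9.56 in STZ,SD, and 9.44, 9.83 and 10.23 (lowest, median, highest) in Con,SD, where Con,SD 3 and 4 were highest and Con,SD 6 was below all STZ,SD arrays. The call was lost without STZ,SD 2 (-0.28, adjusted p = 0.108) and without Con,SD 1, 3 and 4 (-0.15, adjusted p = 0.261). STZ,BEZ differed from Con,SD by -0.22 ± 0.11 for Acot13 (adjusted p = 0.164). In limma that difference was called lower without Con,SD 6 (-0.30, adjusted p = 0.0337). Ucp3, the uncoupling protein of muscle, was spread within each group, from 8.75 to 9.29 in STZ,BEZ, 8.36 to 9.22 in STZ,SD and 8.60 to 9.47 in Con,SD, and passed the test in 0 comparisons.

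The members varied together from array to array within a group. STZ,BEZ 5 was the highest of its group in 19 of 30 members, against 18.7% of all genes, and STZ,BEZ 1 the lowest in 24, against 19.4%. STZ,SD 3 was the highest of its group in 22 members, against 17.6%, and STZ,SD 5 the lowest in 14, against 17%. Con,SD 6 was the lowest control in 20 members, against 14.5%. Averaged over the 30 members, the deviation from the Con,SD mean was 0.43 on STZ,BEZ 5 and 0.03 on STZ,BEZ 1, 0.41 on STZ,SD 3 and 0.03 on STZ,SD 5, and -0.29 on Con,SD 6. On this average the lowest STZ,BEZ array was below that of 3 control arrays, Con,SD 1, 4 and 7.

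**Figure D4:**
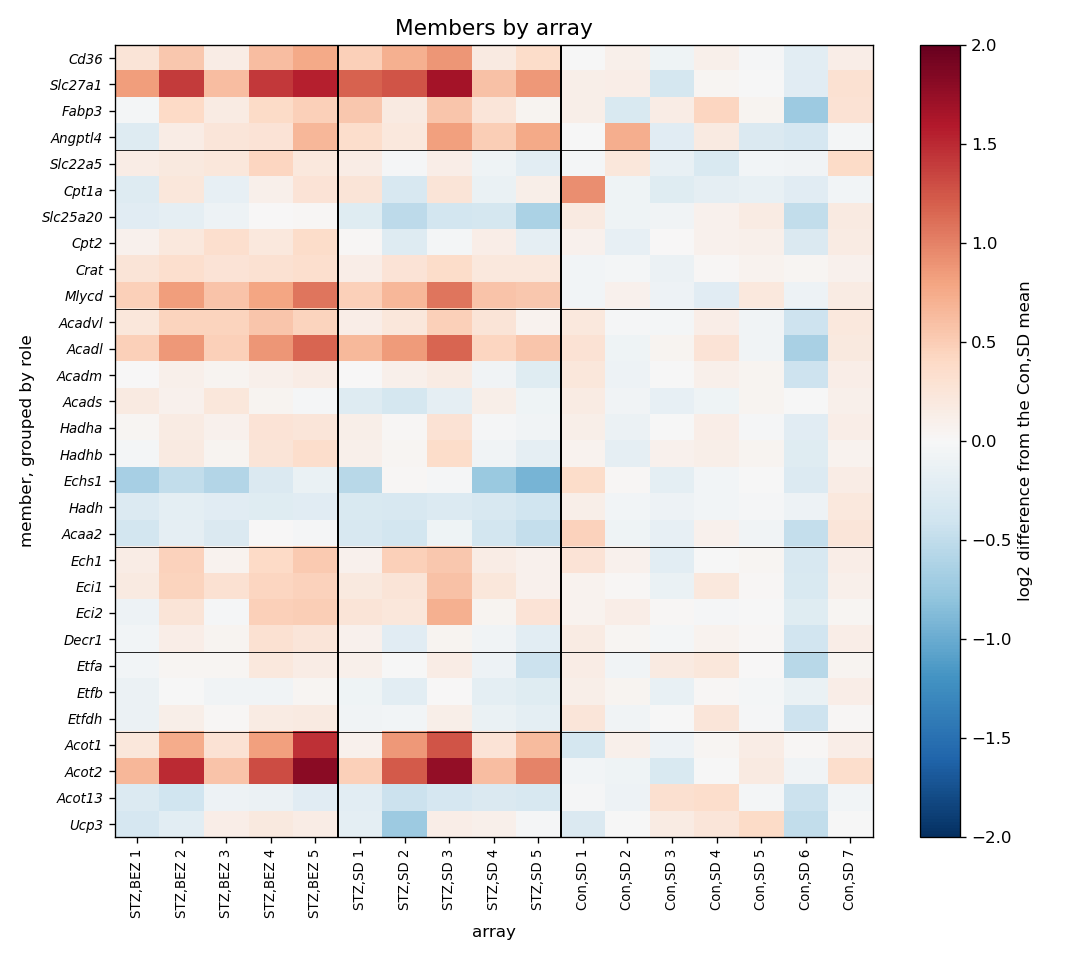
Difference of each member from its Con,SD mean on the log2 scale (colour, red above and blue below), with members as rows grouped by role and the 17 arrays as columns, STZ,BEZ, STZ,SD and Con,SD from left to right. Slc27a1, Mlycd, Acadl and Acot2 are red on all 10 STZ arrays, Hadh is blue on all of them, and Con,SD 6 has the lowest average of the 17 columns, -0.29.

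Marker levels of fibre and other cell types moved with some of these arrays. The slow-twitch fibre level (10 markers, 1 called higher in STZ,SD) was 8.63 to 10.3 in STZ,BEZ, 7.20 to 10.1 in STZ,SD and 6.97 to 9.47 in Con,SD, and Con,SD 6 was the lowest array of all 17. With that level as a covariate Slc27a1 still differed by 1.00 between STZ,SD and Con,SD, Acadl by 0.62, Acot2 by 0.94, Slc25a20 by -0.47 and Hadh by -0.35, each still called. Eci2 lost its call in STZ,SD with this covariate, and Cpt2 and Ech1 lost theirs in STZ,BEZ against Con,SD. The level came from the same arrays and varied within and between groups. The part of fibre type in the values of all these members was not tested. Of 12 endothelial markers 8 were called higher in STZ,SD, with levels of 8.95 to 9.04 in STZ,BEZ, 8.82 to 9.07 in STZ,SD and 8.62 to 8.79 in Con,SD, a shift without overlap against Con,SD. Cd36 is also expressed in endothelial cells, and the part of the endothelial shift in its rise was not tested. Of the other lists, 1 of 10 muscle fibre markers (Mb, myoglobin, -0.75 ± 0.16, adjusted p = 0.00315), 3 of 10 fast-twitch, 1 of 9 adipocyte and 1 of 12 hepatocyte markers were called lower in STZ,SD and 0 of 9 macrophage markers changed. In STZ,BEZ against STZ,SD the 9 adipocyte markers differed by 0.08 to 0.71 and the 12 hepatocyte markers by -0.85 to -0.10. In both lists 0 of these were called. The part of the adipocyte marker levels in other gene values was not tested.

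Other genes of fatty acid handling changed in both directions in STZ,SD. Over 5 lists with 54 measured genes 8 rose and 13 fell, 14.8% and 24.1%, beside 13.9% and 11.9% of all genes. Of 19 further mitochondrial acyl-CoA enzymes 3 rose and 8 fell. Acss1, which makes acetyl-CoA from acetate, rose by 1.00 ± 0.20 (adjusted p = 0.00185). Hsd17b10, a hydroxyacyl-CoA dehydrogenase of isoleucine breakdown, and Mcee, methylmalonyl-CoA epimerase, fell by 0.78 ± 0.06 (adjusted p = 9.01e-07) and 0.42 ± 0.05 (adjusted p = 5.37e-05). Of 13 further genes of uptake and activation 0 rose and 2 fell, Dbi, the acyl-CoA binding protein, by 0.67 ± 0.07 (adjusted p = 5.2e-06) and Fabp5 by 0.33 ± 0.09 (adjusted p = 0.0177). Among 8 genes of carnitine and malonyl-CoA control, Acacb, the mitochondrial acetyl-CoA carboxylase that makes malonyl-CoA, rose by 0.47 ± 0.09 (adjusted p = 0.00106), Cpt1c, the brain form of carnitine palmitoyltransferase 1, rose by 0.24 ± 0.08 (adjusted p = 0.056), and Acaca, the cytosolic carboxylase, fell by 0.37 ± 0.12 (adjusted p = 0.0367). Acacb and Mlycd, which make and remove malonyl-CoA, thus rose together. Of 4 ketone body genes Oxct1 and Bdh2 fell, by 0.30 ± 0.10 (adjusted p = 0.0468) and 0.40 ± 0.14 (adjusted p = 0.0629). Of 10 nuclear regulators Nrf1 rose by 0.32 ± 0.07 (adjusted p = 0.00331), Gabpa by 0.20 ± 0.05 (adjusted p = 0.0148) and Ppard, a PPAR expressed in muscle, by 0.28 ± 0.08 (adjusted p = 0.0184).

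Between STZ,BEZ and STZ,SD, 0 genes of these 5 lists passed the adjusted test in limma. The smallest adjusted p was that of Acaca, with 0.56 ± 0.13 (unadjusted p = 0.000302, adjusted p = 0.355). In the same list Aldh9a1, an enzyme of carnitine synthesis, stood at 0.27 ± 0.22. Oxct1, the enzyme that activates ketone bodies for use in muscle, stood at 0.32 ± 0.11 (adjusted p = 0.778), and Slc16a1, a transporter of lactate and ketone bodies, at 0.22 ± 0.13 (adjusted p = 0.929). The regulators with the smallest p, Esrra and Ppargc1a, stood at 0.09 ± 0.07 and 0.07 ± 0.07. Pccb and Echdc1 had 0.30 ± 0.09 and 0.32 ± 0.11 (adjusted p = 0.778 for both), and Dbi and Fabp5 0.20 ± 0.07 and 0.28 ± 0.10 (adjusted p = 0.778 for both).

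STZ,BEZ differed from Con,SD in these lists in 9 genes that were higher and 6 that were lower, 16.7% and 11.1% of the 54 measured, beside 13.1% and 8.45% of all genes. Hsd17b10 stood -0.68 ± 0.06 from Con,SD (adjusted p = 3.94e-06), Dbi -0.47 ± 0.07 (adjusted p = 0.000197) and Mcee -0.26 ± 0.05 (adjusted p = 0.00347). Bbox1, the last enzyme of carnitine synthesis, stood at -0.72 ± 0.28 (adjusted p = 0.0929). Slc16a1 was 0.31 ± 0.12 higher (adjusted p = 0.0975), Acacb was 0.43 ± 0.09 higher (adjusted p = 0.00287) and Mmut, methylmalonyl-CoA mutase, 0.33 ± 0.07 higher (adjusted p = 0.00388). Acaca and Oxct1 were among several list genes called lower in STZ,SD but not in STZ,BEZ, both against Con,SD. Between STZ,BEZ and STZ,SD neither was called in limma. The regulators Gabpa, Nrf1 and Ppard were higher in STZ,BEZ too, by 0.25 ± 0.05, 0.26 ± 0.07 and 0.22 ± 0.08.

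The promoters of the members were searched for the hexamer AGGTCA, which PPARs and related receptors bind as a repeat with 1 base between. Windows of 250 bases before to 50 after each start (RefSeq, GRCm38.p6) were found for 27 of the 33 members, some with more than 1 start, 30 windows in all. Cpt1b, Crat, Acaa2, Decr1, Acot13 and Angptl4 had no window and were not searched. The exact repeat, on either strand, was in 0 members and 0.0396% of 32851 promoters, and the looser repeat of AGGNCA in 0 members and 0.381%. The element TCAAGGTCA of the oestrogen-related receptors was in 0 members and 0.423% of promoters. These elements are so rare among all promoters that 0 matches in 30 windows says nothing about the members. Sites outside the windows were not searched. CCAAT was in 13 of the 30 member windows, those of 12 members, and in 37.4% of all windows. The single hexamer was in 6 of the 30 member windows, each of a different member, against 16.3% of all windows. These 6 stretches are shown upstream of the start, in the direction of the gene, with the hexamer or its reverse complement in capitals. They belong to Cd36, called higher in STZ,BEZ and STZ,SD against Con,SD, Acadvl, called higher in STZ,BEZ against Con,SD, Echs1, called lower in both STZ groups, and Cpt1a, Acadm and Ucp3, called in 0 comparisons.
Cd36, chr5:17836104-17836139, minus strand: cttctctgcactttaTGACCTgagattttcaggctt
Acadvl, chr11:70015495-70015530, minus strand: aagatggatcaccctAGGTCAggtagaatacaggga
Echs1, chr7:140116484-140116519, minus strand: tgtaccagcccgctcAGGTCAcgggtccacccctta
Cpt1a, chr19:3323192-3323227, plus strand: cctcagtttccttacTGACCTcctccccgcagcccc
Acadm, chr3:153944872-153944893, minus strand: gTGACCTtcgggctccggtgac
Ucp3, chr7:100472827-100472967, plus strand: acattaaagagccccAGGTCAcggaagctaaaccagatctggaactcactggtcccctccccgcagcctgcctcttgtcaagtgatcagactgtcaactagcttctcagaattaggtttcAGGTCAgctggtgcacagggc
Ucp3 was the member with 2 matches in its window. Member windows held a median of 17 CG pairs and all windows a median of 7. A match of letters is a description and no evidence of binding.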

How the data were processed

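The authors hybridised total RNA of skeletal muscle to Affymetrix arrays, 1 for each of 17 mice. The deposited values are log2 expression values that the authors made with RMA (background correction, quantile normalization and probe summary). Affymetrix Expression Console 1.2 is the program in the submitters' processing notes. Values lay between 2.76 and 14.6, and array medians between 6.22 and 6.32. Quantile normalization hides any change shared by most genes. A genome build was not given in the sources used here. Scanner files and scan dates were not used here, so no batch was tested, and the number of arrays limits the precision.

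The methods text of the study gives a lower streptozotocin dose than the labels, the higher bezafibrate strength alone, and untreated controls. Groups were taken from the labels, which number the arrays as biological replicates.

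Of 35556 probe sets, 21789 had 1 gene symbol in the platform's probe table, 1621 had several and 12146 had none. Per gene, the probe set with the highest mean over 17 arrays was kept, which left 19938 genes. All were fitted in 1 model of 3 groups with limma 3.58.1 (R 4.3.3, lmFit then eBayes, two-sided), with Benjamini-Hochberg adjusted p called under 0.1, after the false discovery rate of 10% in the study. As an alternative, SAM was written anew and run with 100 permutations. The scripts were tested on simulated data.

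The members and gene lists were chosen with earlier results of these data known. The text names all members and, of each pathway list, up to 3 called genes per comparison with the smallest adjusted p, or the 2 with the smallest p where none was called, as values only. Promoters came from RefSeq tables (GRCm38.p6) and were aligned with Biopython. Alternatives were median centring, a second quantile normalization, a filter on the 30% dimmest genes, averaging the probe sets of a gene, testing every probe set, only the groups compared, array weights, SAM, a replicate block, hepatocyte or slow-twitch marker level as a covariate, leaving out Con,SD 1, 3 and 4, which correlated least with the other controls, and leaving out each array.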

Additional observations from a re-analysis of the deposited data

Results flagged for a closer look

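Within each group, the highest and lowest array of each member was set against the others with Dixon's test at the 95% level, over 90 sets of arrays (30 members in 3 groups). It marked 7 values, where chance marks about 1 in 20 sets. Slc22a5 was high on STZ,BEZ 4, at 7.39 beside 7.11 to 7.19 on the other STZ,BEZ arrays, and is one of the 2 members whose STZ,BEZ and STZ,SD arrays did not overlap. Cpt1a was high on Con,SD 1, at 8.92 beside 7.74 to 7.93, and this array also had the highest hepatocyte marker level.

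The other 5 were all low values on Con,SD 6. Slc25a20 had 9.25 there beside 9.66 to 9.93 on the other controls, Acadl 9.47 beside 10.03 to 10.41, Eci2 8.53 beside 8.75 to 8.91, Decr1 9.65 beside 9.98 to 10.19, and Etfa 9.49 beside 9.97 to 10.27. Con,SD 6 had the lowest slow-twitch marker level of the 17 arrays, 6.97, and its part in these values was not tested. Without Con,SD 6 the number of members higher in STZ,SD than in Con,SD was 9 and the number lower was 6.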

How the results depend on the processing

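Over 29 alternatives and 3 comparisons, 2512 of 2610 member differences kept their direction and their side of the threshold, where a change of sign between values that were not called either way counts as kept. In 60 a call was lost and in 38 one was gained, all in the comparisons with Con,SD, and 0 called differences changed sign. Between STZ,BEZ and STZ,SD, with 0 members called, every difference counts as kept by this rule. Leaving out an array outside a comparison also leaves its differences unchanged. Slc27a1, Cd36, Mlycd, Crat, Acadl, Acot2, Slc25a20 and Hadh kept their calls in STZ,SD with Con,SD under every alternative. In that comparison 5142 genes were called (8673 with all probe sets as rows), and leaving out 1 array gave 6 to 12 members higher, 3 to 6 lower and 3814 to 5430 genes called. Members lower numbered 3 with the hepatocyte covariate and 2 without Con,SD 1, 3 and 4, where Angptl4, Echs1, Acaa2, Eci2, Acot1 and Acot13 lost their calls in STZ,SD. In STZ,BEZ with STZ,SD 0 members were called under any alternative. Of all genes 4 were called there, 4 to 6 with 1 array left out, 8 with only the groups compared, 11 with array weights, 32 with SAM, 20 with the hepatocyte covariate, 7 with the slow-twitch covariate and 7 without Con,SD 1, 3 and 4. In STZ,BEZ with Con,SD 4298 genes were called (7408 with all probe sets as rows), members lower numbered 1 with the hepatocyte covariate and 1 without Con,SD 1, 3 and 4, where Echs1, Ech1 and Acot1 lost their calls, and leaving out 1 array gave 9 to 12 members higher, 1 to 3 lower and 2998 to 4712 genes. The cause of these shifts was not tested, except that all probe sets as rows tests more features.

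With a replicate block, 7 members were higher and 4 lower in STZ,SD with Con,SD, 0 and 0 in STZ,BEZ with STZ,SD, and 10 and 2 in STZ,BEZ with Con,SD. Angptl4, Echs1, Eci1 and Eci2 lost their calls in STZ,SD with Con,SD. In STZ,BEZ with Con,SD, Cpt2, Ech1 and Echs1 lost theirs. There Slc22a5 was gained as higher (0.31, adjusted p = 0.0756) and Acot13 as lower (-0.32, adjusted p = 0.0194). Same-numbered arrays correlated at -0.239 to 0.083 in their deviations from the group means, and 0 of 15 numbered arrays correlated best with their own number. These correlations cannot tell whether same-numbered arrays were handled together, which was not tested.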
